A study of Mus musculus with 96 samples.

Results

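Prnp, Cd55 and Nt5e were 3 of the 96 assays run on 96 individual cells from mouse uterus, taken at postnatal day 7. The assays carry the names cd230, cd55 and cd73, and were matched to genes by symbol or CD name. The cells had been sorted singly for the surface antigen CD326, the epithelial adhesion molecule EpCAM. Measurement was by preamplification and quantitative PCR in a microfluidic array, whose readout is the cycle threshold (Ct): the less template a cell holds, the more PCR cycles pass before its product is seen, and the higher the Ct. The labels give 1 group, with no strain, treatment, control or animal, and detection of a gene meant a Ct below 28. Cells of 1 group are not replicates, so that no p-value is given, and the exact (Clopper-Pearson) 95% intervals printed beside shares cover counting error only. The defining markers of the labelled cell type were present in most cells: Krt18 was detected in 91 cells, Krt19 in 93 and Epcam, the gene of the sorted antigen, in 74, so that 22 sorted cells had no Epcam Ct below 28. Markers listed for other cell types were mixed. The endothelial Pecam1 was detected in 93 cells and Cd34 in 49, and the immune Ptprc in 57. Of the stromal markers other than Nt5e, Mme was detected in 73 cells and smooth muscle actin in 70. Fewer cells had the stromal Thy1 (17), Mcam (15) and Vim (7) and the endothelial Eng (13).

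All 3 genes encode proteins held on the outer face of the plasma membrane by a glycosylphosphatidylinositol (GPI) anchor, a glycolipid that is attached in the endoplasmic reticulum after a carboxy-terminal signal is cut off. Such proteins have no part in the cytoplasm and gather in lipid-rich membrane domains. They share the anchor but not a function. Prnp encodes the cellular prion protein, a copper-binding glycoprotein whose misfolded form causes prion disease. Cd55 encodes decay-accelerating factor, which shields host cells from complement by speeding the decay of the C3 convertases, and in the human endometrium it is carried by the epithelium. Nt5e encodes CD73, the ectoenzyme that converts extracellular AMP to adenosine, and is also used as a surface marker of mesenchymal stem cells.

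The genes lie on different chromosomes, Prnp on 2, Cd55 on 1 and Nt5e on 9. In the RefSeq table (GRCm38.p6, used for names and gene order) the protein-coding neighbours of Prnp are Prn and Prnd, and Cd55 stands beside Cd55b, a paralogue that shares the older symbol Daf. Primer sequences were not used here, so that a contribution of Cd55b to the cd55 assay was not tested. The 250 bases before the start site of each gene are shown because they set the 3 promoters side by side; all 3 members matched the RefSeq promoter table by symbol, with 1 window each. The windows are chr2:131909678-131909927 on the + strand for Prnp, chr1:130462745-130462994 on the - strand for Cd55 and chr9:88327359-88327608 on the + strand for Nt5e, all in GRCm38.p6 and written 5′ to 3′ along the gene. Capitals mark the GC box, GGGCGG or its reverse complement CCGCCC, the core of the binding site of Sp1 family factors.
Prnp: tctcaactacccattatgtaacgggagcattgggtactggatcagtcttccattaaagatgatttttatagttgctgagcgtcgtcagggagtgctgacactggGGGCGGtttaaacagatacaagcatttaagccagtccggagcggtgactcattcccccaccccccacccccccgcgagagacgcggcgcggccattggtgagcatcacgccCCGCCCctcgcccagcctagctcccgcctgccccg
Cd55: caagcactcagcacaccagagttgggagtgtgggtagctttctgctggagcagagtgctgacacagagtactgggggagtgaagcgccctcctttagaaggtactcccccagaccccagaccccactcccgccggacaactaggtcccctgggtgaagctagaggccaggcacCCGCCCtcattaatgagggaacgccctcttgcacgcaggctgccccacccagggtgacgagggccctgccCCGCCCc
Nt5e: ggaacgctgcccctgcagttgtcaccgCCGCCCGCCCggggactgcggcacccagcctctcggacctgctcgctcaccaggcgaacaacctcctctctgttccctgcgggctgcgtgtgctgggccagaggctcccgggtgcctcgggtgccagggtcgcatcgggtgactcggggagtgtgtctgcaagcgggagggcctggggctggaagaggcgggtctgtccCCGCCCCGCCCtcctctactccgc

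Each window held at least 1 GC box on either strand, as did 32.7% of 32851 windows of the same length. There were 2 in Prnp, 2 in Cd55 and 4 in Nt5e, where the 4 form 2 overlapping pairs. The motif CCAAT, searched with its reverse ATTGG, was found 2 times in Prnp and in neither of the others, against 33.8% of all windows. TATAAA, searched with its reverse TTTATA, was found once in Prnp, 186 bases before the start, and in neither of the others, against 12.4% of all windows. The GC content was 58.8% for Prnp, 64.0% for Cd55 and 72.0% for Nt5e, with a median of 52.4% over all windows. These matches describe the letters of the windows, and no readout of the study bears on binding there.

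Prnp and Nt5e were found in most cells, and Cd55 in fewer. Prnp was detected in 85 of 96 cells (88.5%, interval 80.4 to 94.1%), Nt5e in 83 (86.5%, interval 78.0 to 92.6%) and Cd55 in 61 (63.5%, interval 53.1 to 73.1%). All 3 thus lay among the 55.2% of assays found in at least 50% of cells. By share Prnp stood 11th of the 96 assays, Nt5e 17th and Cd55 41st. The neighbours in that order differed by less than their intervals. Prnp had the same count as Cdh1 (E-cadherin), Ctnnb1 (beta-catenin), Cd164 (a sialomucin), Klf4 and Myc, 85 cells each, and Cd24a, Krt8 and Fzd7 followed above with 87. Nt5e stood between that set and Itgb1 (integrin beta 1) and Dppa2 with 82 each. Cd55 stood between Ezh2, Enpep and Gja1 with 62 each and Msi1 with 58.

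In the cells that detected it, Prnp had a lowest Ct of 13.9, a median of 18.0 and a highest of 25.5. Nt5e ran from 13.6 through a median of 18.3 to 25.2. Cd55 ran from 17.3 through a median of 19.8 to 24.6, a narrower range that began later than that of the other two. On a log2 scale of 28 minus Ct, which assumes that each cycle doubles the product, mean levels were 9.87 ± 2.19 (SD, n = 85 cells) for Prnp, 9.92 ± 2.21 (n = 83) for Nt5e and 7.73 ± 1.66 (n = 61) for Cd55. Assays differ in efficiency and amplicon, so that levels of different genes compare only in rough order.

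The undetected cells did not form the tail of a range that ran into the limit. Of the detected values, 2 of Prnp, 2 of Cd55 and 1 of Nt5e were at a Ct of 24 or above. The highest values inside the limit were 25.5 for Prnp, 24.6 for Cd55 and 25.2 for Nt5e, and just outside lay a single recorded value, an Nt5e Ct of 28.8 in cell 49. All other undetected cells had no recorded Ct (they carry the fill value of 40). The 2 late Prnp values, 25.5 and 25.4, were followed by 21.7, and both came from cells without Epcam. Of these, cell 33 had a Gapdh Ct of 13.1 and detected 32 other genes, and cell 86 a Gapdh Ct of 21.2 and 8 other genes.

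**Figure D1:**
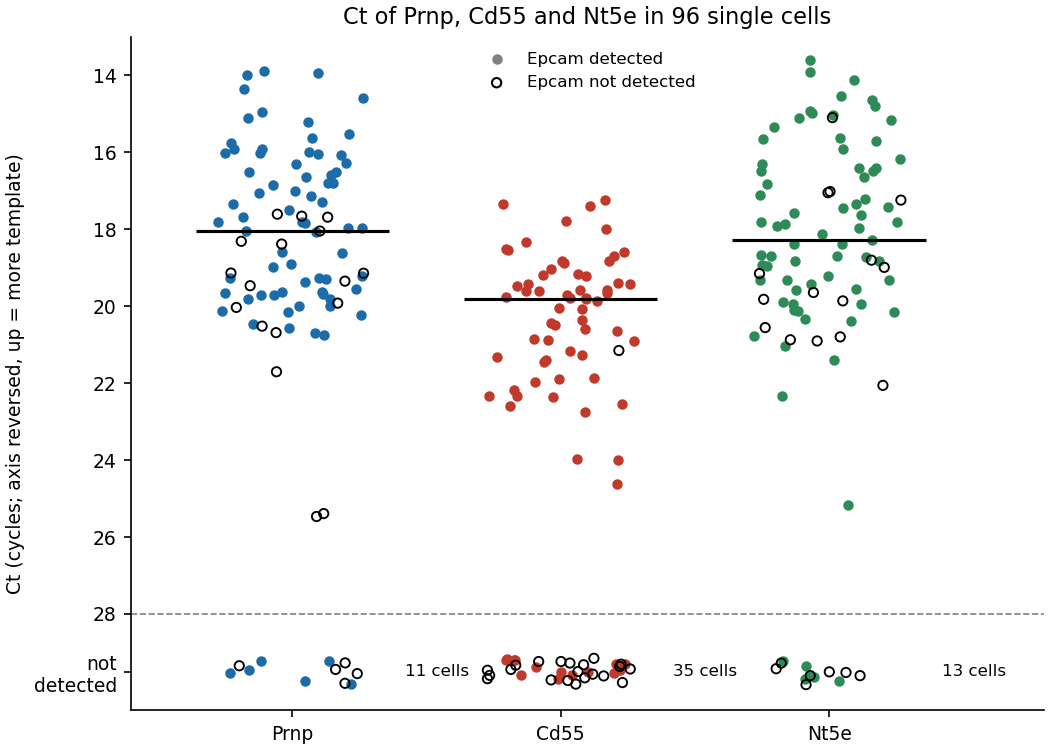
Ct of Prnp, Cd55 and Nt5e in each of the 96 cells, on a reversed axis in cycles; filled points are cells with Epcam, open points cells without, the black line is the median of the detecting cells, the dashed line the limit of 28, and cells without detection are drawn under it. Prnp was not detected in 11 cells, Cd55 in 35 and Nt5e in 13, and a single open point stands among the detected cells of Cd55.

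Failure to detect Prnp was found in cells with little Gapdh, whereas Cd55 was also missing from cells rich in it. Gapdh, a glycolytic enzyme gene used as a reference, had a median Ct of 13.4 and ran from 9.43 to 22.9, with no value in 1 cell. Among the 48 cells with the lower Gapdh Ct, Prnp was detected in 48, Nt5e in 46 and Cd55 in 34 (70.8%, interval 55.9 to 83.0%). Among the other 48 cells, Prnp and Nt5e were each detected in 37 and Cd55 in 27 (56.2%, interval 41.2 to 70.5%). The 11 cells without Prnp had a Gapdh Ct of 14.7 or later and detected 13 to 42 of the 93 other genes, with a median of 20 against 52 in the cells with Prnp. The 35 cells without Cd55 reached down to a Gapdh Ct of 9.85 and detected 8 to 64 other genes, with a median of 46 against 53. At least 50 other genes were detected in 13 of those 35 cells, in 2 of the 13 cells without Nt5e and in 0 of the 11 without Prnp. Cell 70 was 1 of the 2 Nt5e exceptions, with a Gapdh Ct of 10.2, 63 other genes and a Prnp Ct of 17.2.

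In 4 sets of 24 cells ordered by Gapdh Ct, Prnp was detected in 24, 24, 24 and 13 cells, Nt5e in 23, 23, 23 and 14, and Cd55 in 17, 17, 16 and 11. The fall of Prnp and Nt5e lay between the set before last and the last, where Gapdh Ct ran from 14.5 upward. The median share over all 96 assays went from 75.0% through 66.7% and 54.2% to 29.2%, so that an undetected gene in the last set is not shown to be absent from the cell. In 8 cells Gapdh was later than a Ct of 18 or missing, and of these Prnp was detected in 2, Cd55 in 1 and Nt5e in 0. Without them Prnp and Nt5e were each at 94.3% (83 of 88, interval 87.2 to 98.1%) and Cd55 at 68.2% (60 of 88, interval 57.4 to 77.7%). Cell 67, among the 8, had no recorded value in the first 71 assays of the table, which include all 3 genes.

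**Figure D2:**
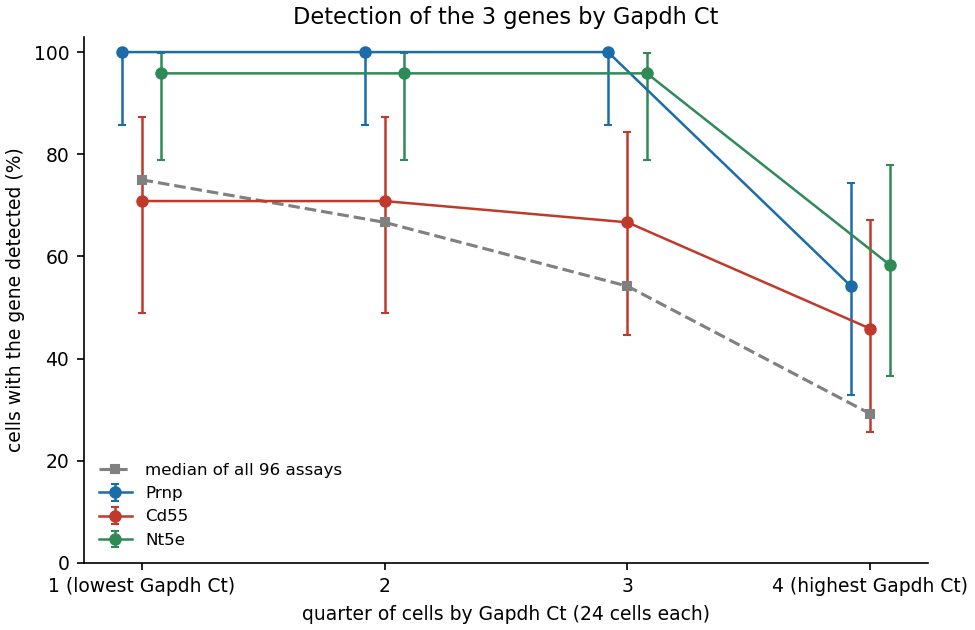
Percent of cells with each gene detected in 4 sets of 24 cells ordered by Gapdh Ct, with exact 95% intervals as bars; the dashed line is the median share of all 96 assays. Prnp and Nt5e stayed at 100% and 95.8% in the first 3 sets and stood at 54.2% and 58.3% in the last, while Cd55 stood at 70.8% in the first.

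Where the genes were detected, their Ct followed that of Gapdh to different degrees. With the 8 low-Gapdh cells left out, Spearman's rho with Gapdh Ct was 0.72 for Prnp (Pearson r = 0.67, and 0.65 without the 2 cells farthest from the median Gapdh Ct, n = 83 cells). It was 0.67 for Nt5e (r = 0.66 and 0.69, n = 83) and 0.44 for Cd55 (r = 0.45 and 0.45, n = 60). The median rho over 75 genes was 0.54, and by this measure Prnp stood 10th, Nt5e 18th and Cd55 53rd. These points share the chip and the preamplification of each cell, so that the amount of template per cell enters every such value. Subtracting Gapdh Ct reduced the SD of Ct from 2.05 to 1.53 cycles for Prnp and from 2.21 to 1.66 for Nt5e, while for Cd55 it went from 1.58 to 1.66. Relative to Gapdh, the median distance was 5.30 cycles for Prnp, 5.24 for Nt5e and 7.37 for Cd55.

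**Figure D3:**
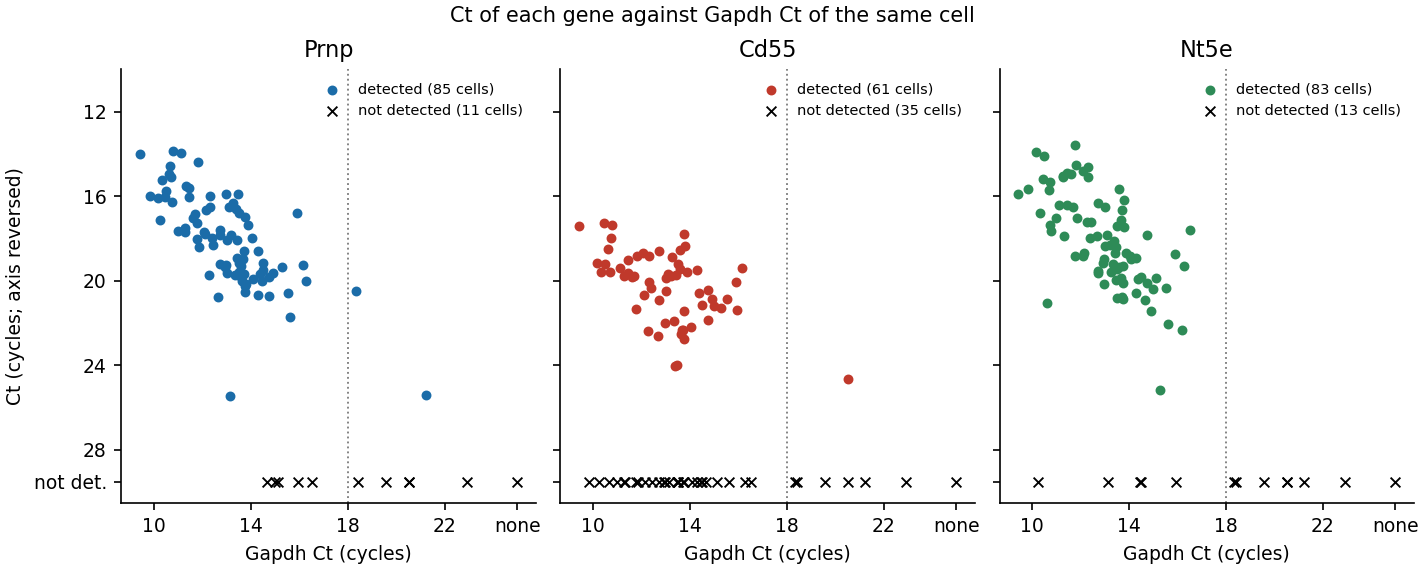
Ct of Prnp, Cd55 and Nt5e (reversed axis, cycles) against Gapdh Ct of the same cell (cycles), with 1 point per detecting cell and crosses for cells without detection; the dotted line marks a Gapdh Ct of 18. Crosses of Prnp begin at a Gapdh Ct of 14.7, and those of Cd55 run from 9.85 onward.

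The 3 genes were found together in 58 cells (60.4%, interval 49.9 to 70.3%). The next pattern was Prnp with Nt5e and without Cd55, in 21 cells, which detected a median of 51 other genes against 53 in the cells with all 3. Prnp alone was found in 6 cells, Nt5e alone in 3, Cd55 alone in 2, and Cd55 with Nt5e in 1. No cell had Prnp and Cd55 without Nt5e, which allows a share of up to 3.77%. The 5 cells with none of the 3 were all low-Gapdh cells and detected 13 to 20 other genes. Of the 61 cells with Cd55, 59 had Nt5e and 58 had Prnp.

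Levels of the 3 genes went together less closely once Gapdh Ct or the count of other detected genes was allowed for. In the cells that detected both genes of a pair, again without the low-Gapdh cells, the Ct of Prnp and Cd55 had a rho of 0.61 (r = 0.59, n = 58 cells), Prnp and Nt5e 0.57 (r = 0.55, n = 79) and Cd55 and Nt5e 0.45 (r = 0.40, n = 59). With Gapdh Ct subtracted from each, rho was 0.41 (r = 0.45), 0.17 (r = 0.12) and 0.16 (r = 0.13), and the Gapdh value shared by both genes of a pair itself adds to such a rho. Over all 96 cells, with the part of each level that a straight line on the count of other detected genes accounts for subtracted, rho was 0.21 for Prnp with Cd55 (r = 0.075), 0.29 for Prnp with Nt5e (r = 0.19) and 0.21 for Cd55 with Nt5e (r = 0.24). None of the 3 pairs reached 0.3, a value that 12.3% of 3655 pairs of genes reached, so that nothing particular to the 3 is read from it. On the same residual levels rho with Gapdh was 0.48 for Nt5e, 0.36 for Prnp and -0.11 for Cd55, so that the fit may leave differences in template. Prnp came earlier than Cd55 in 56 of their 58 shared cells, with a median difference, Prnp minus Cd55, of -2.48 cycles, while Prnp and Nt5e were near each other, with Prnp earlier in 39 of 79 shared cells.

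Detection of Cd55 went with that of Epcam, and that of Prnp and Nt5e did so far less. Cd55 was detected in 60 of the 74 cells with Epcam (81.1%, interval 70.3 to 89.3%) and in 1 of the 22 without (4.55%, interval 0.115 to 22.8%). Prnp was detected in 68 of the 74 (91.9%) and 17 of the 22 (77.3%, interval 54.6 to 92.2%), and Nt5e in 68 (91.9%) and 15 (68.2%, interval 45.1 to 86.1%). The cells with Epcam detected a median of 53 other genes and those without 44. Within the 48 cells of lower Gapdh Ct, where these medians were 57.5 and 52, Cd55 was detected in 34 of 40 cells with Epcam and in 0 of 8 without (interval 0 to 36.9%). In the same 8 cells Prnp was detected in 8 and Nt5e in 7. Without the 8 low-Gapdh cells the counts of Cd55 were 59 of 70 and 1 of 18. The exception was cell 40, with a Cd55 Ct of 21.2 against a median of 19.8, no Epcam value, and both Prnp and Nt5e detected.

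**Figure D4:**
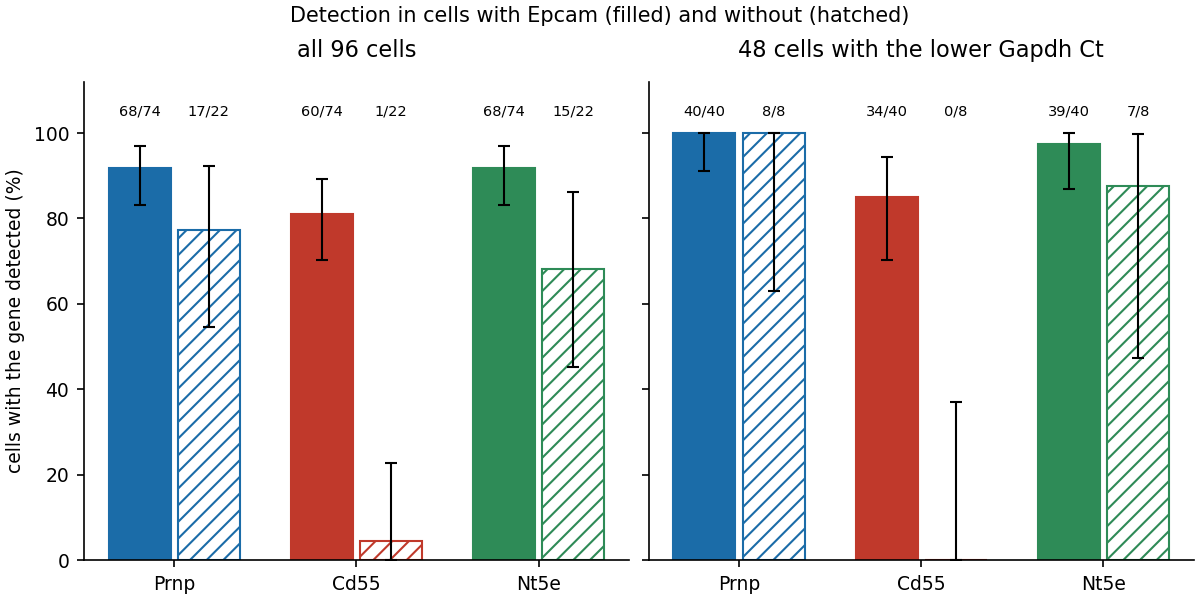
Percent of cells with Prnp, Cd55 and Nt5e detected among cells with Epcam (filled bars) and without (hatched bars), for all 96 cells on the left and the 48 cells of lower Gapdh Ct on the right; bars have exact 95% intervals, and the counts stand above them. Cd55 stood at 81.1% with Epcam and 4.55% without in all cells, while Prnp stood at 91.9% and 77.3%.

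Of 81 genes with at least 7 cells on either side, Epcam split the cells most by the share of Cd55, a difference of 76.5 percentage points. Cd9, a tetraspanin gene, came next with 72.7 points (60 of 77 cells with it, 1 of 19 without), then Wnt7a, a WNT ligand gene of the uterine epithelium, with 62.8 (48 of 52 against 13 of 44). The cells without Cd9 detected a median of 32 other genes against 52, and those without Wnt7a 46.5 against 54. Without the low-Gapdh cells, Cd55 was in 60 of 75 cells with Cd9 and 0 of 13 without. For Wnt7a these counts were 48 of 52 and 12 of 36. The median over the 81 genes was 16.8 points. Cd55 was at least 30 points more frequent in the cells with the gene for 28.4% of those genes, Prnp for 22.2% and Nt5e for 21.0%. The gene that split Prnp most was Cd164 (83 of 85 cells with it, 2 of 11 without). The 11 cells detected a median of 20 other genes against 52 and had a median Gapdh Ct of 18.4 against 13.1, and 4 of them remained without the low-Gapdh cells. At the other end, Vim, the mesenchymal intermediate filament gene, was found in 7 cells, 0 of which had Cd55 (interval 0 to 41.0%), against 61 of the 89 others. Of the 13 cells with Eng, the co-receptor endoglin, 2 had Cd55, against 59 of 83 others. Of the 8 with Itga1, an integrin gene, 2 had Cd55, against 59 of 88 others, and of the 22 with Tbx3, a T-box transcription factor gene, 7 had Cd55, against 54 of 74. Of the 11 with Hoxa10, a gene of the female tract, 4 had Cd55, against 57 of 85 others. A deficit of 30 points or more was found for these 5 genes, 6.17% of the 81. Other genes listed as stromal, as Vim was, stood higher in this order: the share of Cd55 was higher by 26.4 points in the cells with Mme, 18.6 with smooth muscle actin, 11.6 with Mcam and 1.41 with Thy1. Eng was listed as endothelial, and with Cd34 of that list the share of Cd55 was higher by 3.60 points. Pecam1, also of that list, was missing from 3 cells and so was not ranked. The cells with Vim detected a median of 50 other genes and those with Eng 52, against 51 in the cells without Vim and 51 in those without Eng. All 7 cells with Vim and all 13 with Eng had Prnp, and 5 and 11 had Nt5e. For Prnp and for Nt5e 0.0% of the genes showed such a deficit.

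The 14 cells with Epcam and without Cd55 held most epithelial markers, as did the 60 with both. Cd24a was detected in 14 of the 14 and 59 of the 60, Krt18 in 13 and 60, Krt19 in 13 and 59, Cdh1 in 11 and 59 and Krt8 in 10 and 59. Epcam is present in both groups by their definition. Of these 5 other markers the 14 cells detected a median of 4.5 and the 60 a median of 5, with median summed levels of 45.1 and 54.2. With the low-Gapdh cells left out both medians were 5, with median summed levels of 50.5 (n = 11 cells) and 54.6 (n = 59). Wnt7a was detected in 3 of the 14 and 47 of the 60, and Pax2, a paired-box gene of the Müllerian duct, in 4 and 39. Vim was detected in 3 of the 14 and 0 of the 60, and Tbx3 in 5 and 7. The 0 for Vim follows from the absence of Cd55 in every cell with Vim. Other genes listed as stromal did not go one way. Shares in the 14 and the 60 were 64.3% and 78.3% for smooth muscle actin and 71.4% and 83.3% for Mme. They were 21.4% and 18.3% for Mcam and 28.6% and 18.3% for Thy1. Epcam itself came later in the 14, with a median Ct of 23.0 (range 16.7 to 24.8) against 20.7 (range 15.2 to 24.9), though the ranges overlapped. Of the 14, 3 were low-Gapdh cells, and without those the medians were 21.4 and 20.5.

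In the 21 cells with neither gene, Wnt7a was detected in 1, Pax2 in 0, Cd9 in 6 and Itga6, an integrin of the epithelial base, in 5. In the 60 cells with both, these counts were 47, 39, 59 and 53. Of the epithelial markers, Krt19 was detected in 20 of the 21 cells, Krt8 and Krt18 in 17 each, Cdh1 in 14 and Cd24a in 13. Krt18 was detected in all 60 cells with both, and each of the others in 59. Esr1, the estrogen receptor gene, was detected in 16 of the 21 and 47 of the 60. Epcam defines these groups, so that the epithelial markers were counted without it. Of the other 5 the 21 cells detected 1 to 5 (median 5), with a summed level of 5.50 to 52.8 (median 36.5). The 60 cells with both detected 2 to 5 (median 5), with a summed level of 12.1 to 71.3 (median 54.2). Of 9 stromal, endothelial and immune markers other than Nt5e the 21 cells detected 1 to 7 (median 4), with a summed level of 10.5 to 61.1. The 60 cells with both detected 0 to 6 (median 4), at 0 to 64.4. The median summed levels were 38.3 in the 21 cells and 37.6 in the 60. Of the 21 cells 4 were low-Gapdh cells, and of the 60 cells 1 was. With those left out, the medians were 5 of the 9 markers (n = 17 cells) and 4 (n = 59), with median summed levels of 40.9 and 37.8. The 9 markers did not go one way. Vim was detected in 0 of the 60 cells and 4 of the 21, and Eng in 2 and 9. Shares were lower in the 21 cells for Thy1 (18.3% of the 60 and 9.52% of the 21), Mcam (18.3% and 4.76%), smooth muscle actin (78.3% and 61.9%), Mme (83.3% and 57.1%) and Ptprc, the leukocyte gene of CD45 (66.7% and 42.9%). They were 98.3% and 95.2% for Pecam1, an endothelial adhesion gene, and 53.3% and 47.6% for Cd34. In the 21 cells the shares of Thy1 and Mcam rest on 2 cells and 1 cell. The 21 cells detected a median of 42 other genes and the 60 cells 53. The part of other cell types in the split of Cd55 was not tested.

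Where both genes were detected, again without the low-Gapdh cells, the Ct of Cd55 followed that of Epcam with a rho of 0.53 (r = 0.53, and 0.50 without the 2 farthest cells, n = 59 cells), and 0.13 (r = 0.19) after Gapdh Ct was subtracted from each. For Prnp the values were 0.61 (r = 0.67 and 0.62, n = 67) and 0.49 (r = 0.43), and for Nt5e 0.57 (r = 0.50 and 0.51, n = 68) and 0.20 (r = 0.18). These points share the template of each cell, as above.

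The genes whose levels were most like each member differed among the 3. For Cd55 they were Epcam (rho = 0.55, r = 0.62), Wnt7a (0.54 and 0.58), Cd9 (0.52 and 0.60), Cd24a (0.50 and 0.45) and Krt18 (0.47 and 0.47), over 96 cells and on the residual levels described above. The least like Cd55 were Enpep, an aminopeptidase gene (-0.40 and -0.40), Tbx3 (-0.40 and -0.57) and Tdgf1, which encodes the GPI-anchored protein Cripto (-0.39 and -0.38). By detection Enpep showed no such deficit, with Cd55 in 41 of the 62 cells with it (66.1%) and 20 of the 34 others (58.8%). With the low-Gapdh cells left out these shares were 66.1% and 73.1%. For Cd55, 14.1% of 85 genes had a rho of 0.3 or more and 9.41% one of -0.3 or less. For Prnp the highest were Cd164 (0.57 and 0.40), Ctnnb1 (0.55 and 0.42), Itgb1 (0.46 and 0.28), Insr, the insulin receptor gene (0.42 and 0.41), and Msi1, an RNA-binding protein gene (0.39 and 0.27). Its lowest were Itgae (-0.19 and -0.21), Mst1r (-0.19 and -0.23) and Sall4 (-0.17 and -0.13). For Prnp 16.5% of the genes reached 0.3, and 0.0% reached -0.3. For Nt5e the highest were Igf1r, the insulin-like growth factor receptor gene (0.49 and 0.29), Gapdh (0.48 and 0.29), actin (0.45 and 0.30), Krt8 (0.44 and 0.28) and Itga3 (0.41 and 0.35). The lowest were Anpep (-0.19 and -0.24), Esr1 (-0.19 and -0.27) and Krt15 (-0.17 and -0.16), with 14.1% of the genes at 0.3 or more.

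Without the low-Gapdh cells the same 5 genes led for Cd55, and those of Prnp stayed within the first 6. For Nt5e, Gapdh moved to 8th place at a rho of 0.41, while Igf1r (0.55) and actin (0.51) stood first and second.

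**Figure D5:**
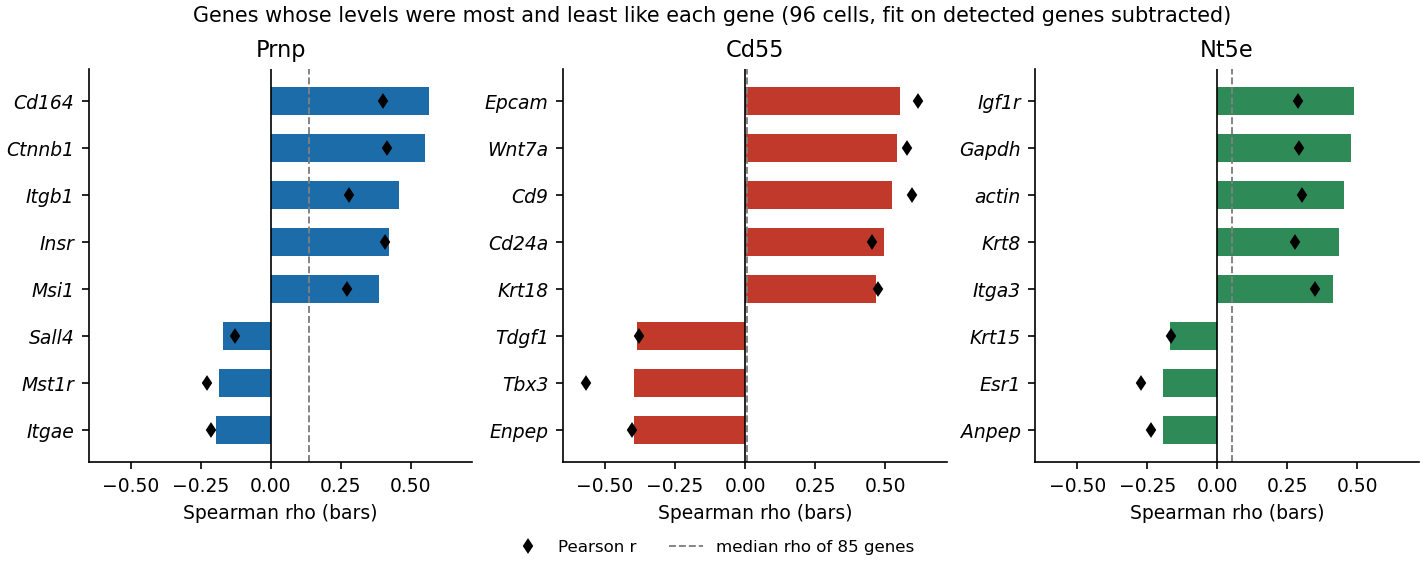
Spearman rho (bars) and Pearson r (diamonds) of levels over 96 cells, after the straight-line fit on other detected genes was subtracted, for the 5 genes most like and the 3 least like Prnp, Cd55 and Nt5e; the dashed line is the median rho of the 85 genes compared. Cd55 has the lowest values on the negative side, down to -0.40, and its median lies at 0.01 against 0.14 for Prnp.

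Of 12 genes of GPI-anchored proteins that were listed, 6 were measured, the 3 members with Cd24a, Tdgf1 and Thy1. Cd24a, a small mucin-like glycoprotein gene, was detected in 87 cells, Tdgf1, a co-receptor gene of Nodal signalling, in 67, and Thy1, a gene of stromal and neural cell surfaces, in 17. The median cell detected 5 of the 6, 8 cells detected all 6 and 3 cells none. On residual levels, Cd55 had a rho of 0.50 with Cd24a (r = 0.45), -0.39 with Tdgf1 (r = -0.38) and -0.01 with Thy1 (r = 0.01). Prnp had 0.38, 0.20 and 0.21 with the same genes, and Nt5e 0.17, 0.03 and -0.09. The values for Tdgf1 turned sign with the measure. On Ct minus Gapdh Ct in the cells that detected both genes, rho with Tdgf1 was 0.19 for Cd55 (n = 45 cells), -0.15 for Prnp (n = 67) and -0.41 for Nt5e (n = 64), so that no direction is read for it. With Cd24a that measure gave 0.39 for Cd55, 0.53 for Prnp and 0.22 for Nt5e.

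Nt5e was the most widely found of the surface trio used for mesenchymal stem cells (CD73, CD90 and CD105, encoded by Nt5e, Thy1 and Eng). It was detected in 83 cells, Thy1 in 17 and Eng in 13, and all 3 were found together in 1 cell. In 59 cells Nt5e was found with neither of the others. Thy1 was in 14 of the 83 cells with Nt5e and Eng in 11, and the share of Nt5e was 82.4% in the cells with Thy1 and 87.3% in those without. Of the other listed surface genes that handle nucleotides or adenosine, Dpp4, which encodes a peptidase that binds adenosine deaminase, was measured, and 29 of its 30 cells had Nt5e, against 54 of 66 others. Without the low-Gapdh cells these shares were 96.7% and 93.1%. Among the other surface peptidase genes, Nt5e was found in 37 of 41 cells with Anpep and 46 of 55 without, and these shares were 92.5% and 95.8% without the low-Gapdh cells. Mme and Enpep had 68 of 73 and 60 of 62 cells with Nt5e, against 15 of 23 and 23 of 34 in the cells without them. The cells without Mme and Enpep detected a median of 41 and 40 other genes, against 53 in the cells with either. Without the low-Gapdh cells the shares of Nt5e were 94.4% and 93.8% with and without Mme, and 96.8% and 88.5% with and without Enpep.

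Of 3 genes of reported membrane partners of the prion protein, Itgb1 stood in place 3 for likeness to Prnp among 85 genes, Ncam1, a neural adhesion gene, 26th (rho = 0.23, r = 0.22) and Itga6 33rd (0.20 and 0.09), beside a median of 0.14. Of 9 genes of the female tract, 8 were found in enough cells to compare. Prnp had a rho of 0.34 with Wnt7a, 0.32 with Emx2, 0.30 with Pax2 and 0.14 with Pgr, the progesterone receptor gene, and between 0.01 and 0.09 with Hoxa10, Hoxa11, Hoxa13 and Esr1. Cd55 had 0.54 with Wnt7a, 0.39 with Pax2, 0.11 with Emx2, -0.07 with Hoxa13, -0.14 with Hoxa10 (r = -0.34) and -0.22 with Pgr. With Hoxa11 the rho of Cd55 was -0.33 (r = -0.52) and with Esr1 -0.37 (r = -0.37), while 13 of the 29 cells with Hoxa11 had Cd55 against 48 of 67 others. Of the 74 cells with Esr1, 48 had Cd55 (64.9%), against 13 of 22 others (59.1%). With the low-Gapdh cells left out these shares were 66.7% and 75.0%.

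The authors' deposited fold changes, which are relative to Gapdh and then to cell 1, set the 3 genes on different footings. Cell 1 had a Gapdh Ct of 20.5 and a Cd55 Ct of 24.6, the latest of all 61 cells with Cd55, while Prnp and Nt5e stood at the fill value of 40 in it. On the log2 scale of that deposited table the median of the detecting cells was therefore 14.20 for Prnp (range 7.12 to 18.54), 14.21 for Nt5e (range 9.04 to 18.41) and -3.17 for Cd55 (range -6.53 to 0.85). Of the 61 cells with Cd55, 58 lay below cell 1, whose Cd55 was late in Ct but not relative to its own late Gapdh. The sign of a value in that table is thus taken against both the Ct of the gene and the Gapdh Ct in cell 1, while the median Ct of the 3 genes lay between 18.0 and 19.8.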

How the data were processed

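The authors deposited raw cycle thresholds (Ct) and, in another table, fold changes, a ratio to a housekeeping gene and then to cell 1 (per the file headers); recomputing the ratios from the Ct values with Gapdh gave them within 6.55e-06 on the log2 scale. Sorting, the reverse transcription and preamplification kit, EvaGreen chemistry and the Fluidigm 96 by 96 chip are given in the labels' protocols. No source used here gives threshold settings or quality filters. Columns were matched to cells by number. Detection meant a Ct below 28, the level was 28 minus Ct, and undetected cells had level 0. All 96 cells were kept, and no cells were removed as doublets. Depth per cell is the number of genes detected, 9 to 78 of 96 with a median of 54.

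Likeness was the Spearman rho over cells of residuals, each level having been fitted linearly on how many other genes the cell detected; genes found in under 10% of cells were left out. Named were, for each of the 3 genes, the 5 highest and 3 lowest by rho, the nearest genes by share, and list members; the genes named for splits of Cd55 detection were chosen after their values were seen. The 3 genes and all lists were chosen with earlier results of these data known. The likeness step was tested on simulated data. Python 3.11.15, numpy 2.4.6, pandas 2.3.3, scipy 1.17.1 and matplotlib 3.10.9 were used. Primers were not checked.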

Additional observations from a re-analysis of the deposited data

How the results depend on the processing

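Across the alternatives, 88 values of the 12 results lay inside the exact interval (shares), 1 SD (levels) or 0.1 (rho) of the value reported, and 24 moved. The 2 results on Cd55 in cells with and without Epcam, and their alternatives, were added after the data were seen, and all lay inside intervals that are wide for the 22 cells without Epcam: their share with Cd55 went from 4.55% to 10.3% (3 of 29) at a Ct limit of 24 and 14.3% (1 of 7) where all reference genes were detected. No paired analysis was possible because all cells form 1 group, and no animal is named in the labels. Leaving out cell 67, or the 10% of cells with the most genes, or using Ct limits of 24, 26 or any recorded Ct, kept all 12 within those margins. All recorded Ct of Prnp and Cd55 were below 26, so that the last 2 limits could not change their shares or mean levels. The margin for mean levels, 1 SD over single cells, is wide, so that a value inside it says little. Where Gapdh, actin and Hprt were all detected (63 cells), shares were 96.8% for Prnp, 77.8% for Cd55, 93.7% for Nt5e and 76.2% for all 3 together. Without the low-Gapdh cells Prnp and Nt5e were each at 94.3%, and in the 74 cells with Epcam Cd55 was at 81.1% and all 3 at 77.0%. Mean levels changed with the scale. Minus Gapdh Ct they were -5.12 for Prnp, -7.22 for Cd55 and -5.13 for Nt5e; on the deposited log2 folds 14.33, -3.13 and 14.33; and that of Cd55 was 4.91 with undetected cells at 0. The rho of Prnp with Cd55 was 0.34 in those 63 cells, 0.48 with no fit, 0.075 as Pearson r and 0.41 on Ct minus Gapdh Ct. That of Prnp with Nt5e was 0.67, 0.19 and 0.17 under the last 3 of these. That of Cd55 with Nt5e was 0.34 in those 63 cells and 0.50 with no fit. The settings differ in the cells kept, in the scale or in the fit on depth, and the cause of the moves was not tested. At about 20 cells a group the intervals are wide, and absence of a Ct is not absence of the transcript.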
